A study of Gallus gallus with 9 samples.

Results

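The 200 genes described here are those whose reads were most restricted to gonadal primordial germ cells (PGCs) of the chicken. They were taken from a total of 24356 Ensembl genes, of which 24202 could be chosen, because the 154 gene identifiers that the study had listed for DNA repair, apoptosis and pluripotency were left out. Each gene was scored by its lowest value in the 3 PGC libraries set against its highest value in the 6 other libraries, as a log2 ratio with 1 added to both, and the 200 highest scores were kept. The values are normalized CPM, the deposited counts divided by the depth of the library after adjustment by the trimmed mean of M-values (TMM), on the usual CPM scale. The score used the measured values of all 9 libraries. Therefore, the levels of these genes in PGCs and their distance from the other groups are a description of the choice and were not tested.

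The study set undifferentiated and germline cells beside differentiated somatic cells of the same breed. All cells came from White Leghorn chickens without genetic modification or treatment, and 3 replicates were made of each of the 3 groups. The chicken embryonic fibroblasts (CEFs) were the adherent cells grown from the bodies of 5 embryos per replicate, after organs and limbs had been removed, on embryonic day 6 (stage 28 of Hamburger and Hamilton, HH28), and were used at passage 2. The blastoderms of Eyal-Giladi and Kochav stage X (EGK.X) were pooled from 10 embryos per replicate, as found in the freshly laid egg. The PGCs were enriched from the dissociated gonads of HH28 embryos on a magnetic column with an antibody to the surface antigen SSEA-1, and each replicate pooled between 484 and 684 gonads. The study stained a sample of the cells of each replicate for SSEA-1 as a check that the retained cells were PGCs. No purity figure was used here. Hence, a PGC library is an average over many embryos and over an enriched fraction that may hold other cells. The groups also differ in culture, in isolation and, for EGK.X blastoderms, in stage, which cannot be told apart. A bulk library also cannot tell fewer cells of a type from less RNA per cell.

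In birds, PGCs arise from a few cells of the early blastoderm, travel through the bloodstream and settle in the embryonic gonad, where they later give rise to eggs or sperm. Germ cells are known for RNA-binding proteins that guard germline RNA, for the small RNA machinery that silences transposable elements, and for genes of meiosis. The gonads also contain supporting somatic cells and blood, which an enriched fraction may carry along. The files pair no symbol with the identifiers of these 200 genes, and none of the identifiers could be matched in the reference table used. For this reason, no gene function is given here. The genes are described by the rank of their score, with 4 identifiers printed, and markers of gonadal somatic cells, blood, endothelium and epithelium were not analysed here. Genes that overlap another gene, and copies that share reads, are uncertain, because the overlap and strand settings of the counting are not given in the sources used here.

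The libraries held between 29512715 (PGC replicate 2) and 67475925 (EGK.X blastoderm replicate 2) counts on genes. The germ cell label was set against pluripotency and meiosis genes that the study names. NANOG, a core pluripotency factor that avian germ cells keep, stood at 150, 146 and 140 normalized CPM in PGCs, at 683, 671 and 567 in EGK.X blastoderms, and at 0.0399, 0 and 0 in CEFs. Pou5f3, the avian counterpart of the pluripotency factor OCT4, stood at 197, 207 and 157 in PGCs, at 446, 594 and 620 in EGK.X blastoderms, and at 9.14, 8.11 and 10.5 in CEFs. PGCs thus lay between the other groups, with a log2 fold change over CEFs of 4.34 ± 0.19 (SE, adjusted p = 1.95e-09, quasi-likelihood test of edgeR, Benjamini-Hochberg adjusted over 22698 genes) and over EGK.X blastoderms of -1.56 ± 0.17 (SE, adjusted p = 6.27e-06, edgeR). SYCP3, a component of the synaptonemal complex of meiotic chromosomes, stood at 5.26, 5.61 and 4.68 in PGCs. It stood at 2.60, 2.27 and 2.66 in CEFs and at 1.74, 1.63 and 2.51 in EGK.X blastoderms. Its log2 fold change was 1.04 ± 0.28 over CEFs (adjusted p = 0.00703, edgeR) and 1.40 ± 0.28 over EGK.X blastoderms (adjusted p = 0.00107, edgeR). DMC1, a meiotic recombinase, was near 0 in every group, at 0.498, 0.351 and 0.376 in PGCs and at 0.579, 0.280 and 0.571 in CEFs, and passed neither over CEFs (log2 fold change -0.23 ± 0.53, adjusted p = 0.743, edgeR) nor over EGK.X blastoderms (1.17 ± 0.54, adjusted p = 0.0859, edgeR). SOX2, also a core pluripotency factor of the study, stood at 3.51, 3.59 and 3.14 in PGCs and at 0.140, 0.0622 and 0 in CEFs. In EGK.X blastoderms it stood at 1.53, 1.93 and 5.95, which overlaps PGCs. NANOG and Pou5f3 were higher in EGK.X blastoderms than in PGCs, and DMC1 was near 0. SYCP3 was higher in PGCs, but its PGC level lay below the lowest mean PGC level of the 200 genes, 19.2. These genes therefore cannot settle the germ cell label. None of the study's 154 listed identifiers had a score as high as that of rank 200.

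**Figure D1:**
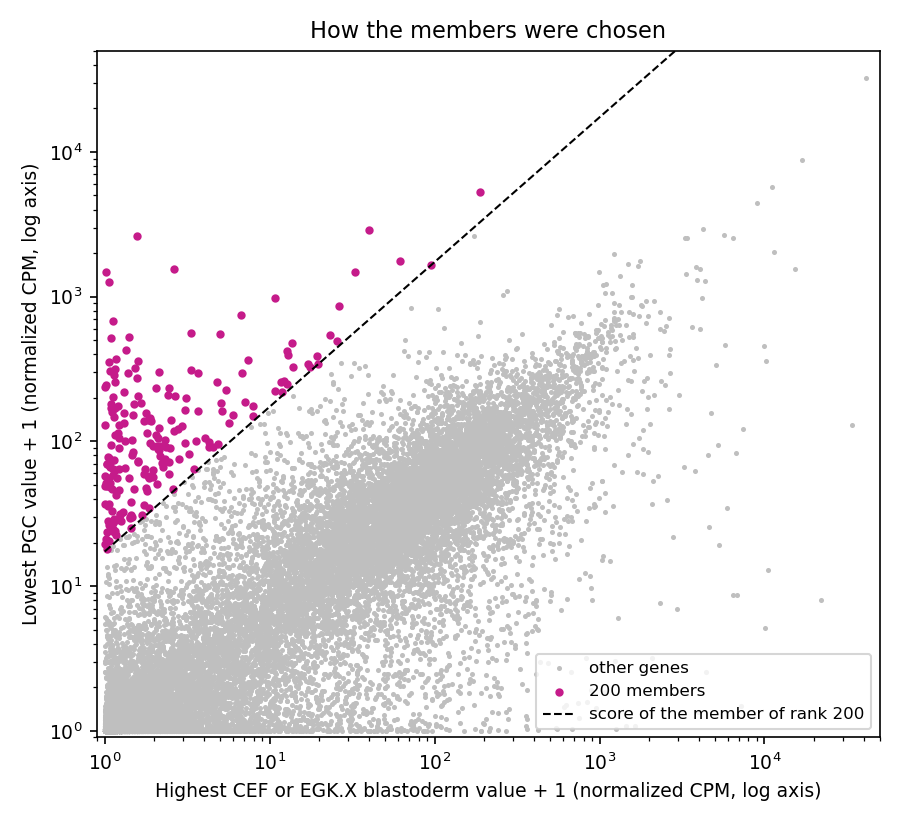
Lowest PGC value (vertical axis) against the highest CEF or EGK.X blastoderm value (horizontal axis) for each gene, both as normalized CPM plus 1 on log axes. The 200 chosen genes lie on or above the dashed line, which is the score of rank 200, and most of them lie at the left edge, where the highest value of the other 6 libraries is near 0.

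Scores ran from 10.71 at rank 1 to 4.12 at rank 200, with a median of 5.47. A score above 10 was seen for 3 genes, above 8 for 12, above 6 for 68 and above 5 for 126. The scores just around the limit lay close together. Rank 200 had a lowest PGC value of 24.0 and a highest other value of 0.443 normalized CPM, while the next gene, which was left out, had 51.2 and 2.01. Their scores were 4.117 and 4.116, and the fifth gene left out scored 4.08. The same score was computed for the other groups to show how large the PGC values are. A score of at least that of PGC rank 200 was reached by 151 genes for CEFs and by 24 genes for EGK.X blastoderms. A score above 7 was held by 32 genes for PGCs, 24 for CEFs and 0 for EGK.X blastoderms, whose highest score was 6.02. The 200 genes most restricted to CEFs took between 15.4 and 19.9% of the counts of CEF libraries, and those most restricted to EGK.X blastoderms between 2.75 and 2.92% of theirs. The 200 PGC-restricted genes took between 6.35 and 7.49% of the counts of PGC libraries.

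In PGCs, the highest of the 200 genes stood 317-fold above the lowest, and a few genes carried much of the signal. The mean level was 19.2 normalized CPM for the lowest gene, 114 for the median gene and 6075 for the highest, and the middle of the distribution lay between 60.4 and 253. There were 16 genes under 30, 71 between 30 and 100, 72 between 100 and 300, 31 between 300 and 1000, and 10 above 1000. The 10 genes with the highest mean PGC level together took 42.2, 41.8 and 43.2% of the counts on the 200 genes in PGC replicates 1, 2 and 3. Every one of the 200 genes was above 10 normalized CPM in every PGC library, which the choice of the genes fixed.

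Outside PGCs, most of the 200 genes were close to absent. The median level over the 200 genes was 0.140, 0.0932 and 0.131 normalized CPM in CEF replicates 1 to 3, and 0.242, 0.256 and 0.220 in EGK.X blastoderm replicates 1 to 3, compared with 110, 107 and 134 in PGC replicates 1 to 3. As means of these library medians, the groups stood at 0.121 ± 0.0247, 0.240 ± 0.0181 and 117 ± 14.6 (SD, n = 3). The PGC libraries and the others do not overlap, as the score requires, and the EGK.X blastoderm libraries all lie above the CEF libraries. The median over all tested genes was between 1.68 and 3.36 in every library. The 200 genes were thus low in CEFs and EGK.X blastoderms also beside an ordinary gene, which the choice by the score favoured. Of all counts on genes, the 200 genes took 0.0182, 0.0173 and 0.0232% in CEFs, 0.0577, 0.0679 and 0.0511% in EGK.X blastoderms, and 6.45, 6.35 and 7.49% in PGCs.

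**Figure D2:**
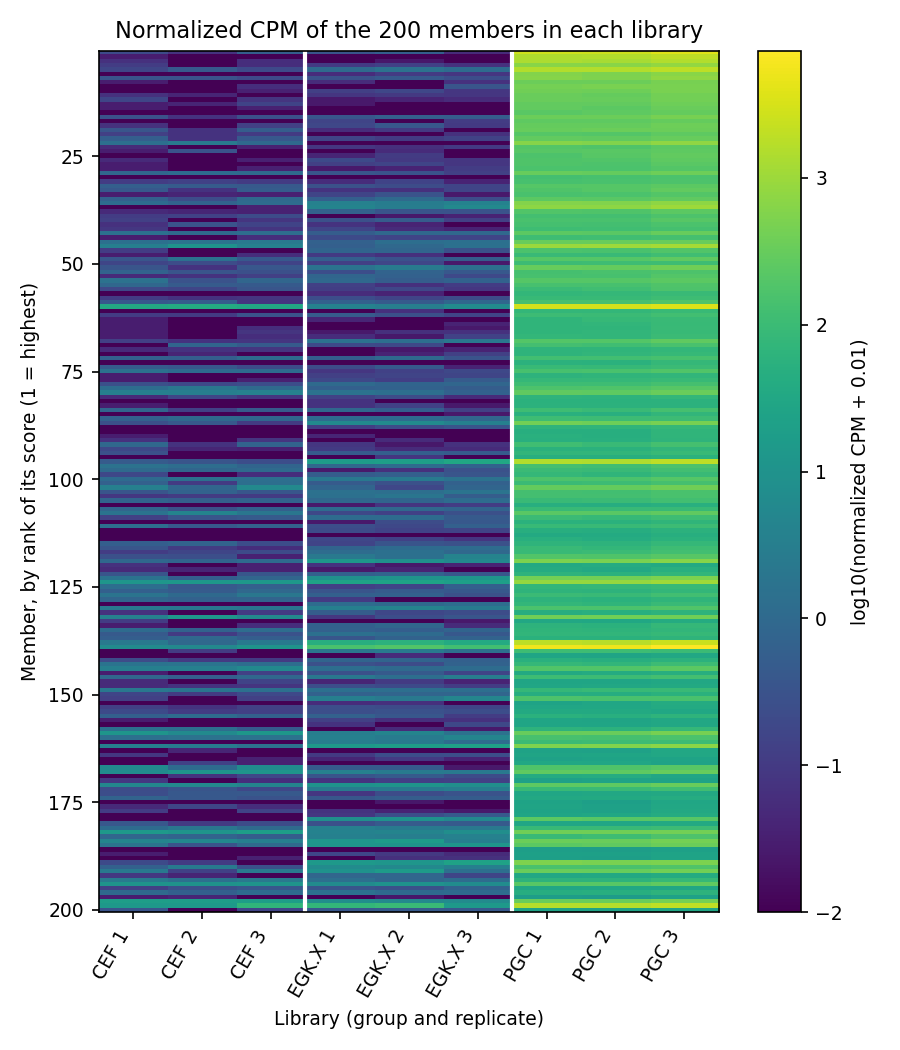
Level of each of the 200 genes (rows, rank 1 at the top) in each of the 9 libraries (columns, with white lines between the groups), as log10 of normalized CPM plus 0.01. The PGC columns are bright throughout, while the CEF and EGK.X blastoderm columns are dark except for a few rows, among them ranks 60, 138 and 139.

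The residual signal outside PGCs differed from gene to gene. A total of 27 genes had no count in any CEF library and 12 had none in any EGK.X blastoderm library. A further 30 had 1 to 3 counts over the CEF libraries, and a further 16 over the EGK.X blastoderm libraries. These numbers are not matched for TMM-adjusted depth, since 3 counts over the group stood for 0.0241 normalized CPM in CEFs and for 0.0145 in EGK.X blastoderms. By contrast, the mean level was above 1 normalized CPM for 40 genes in CEFs and 50 in EGK.X blastoderms, and above 10 for 7 and 10 genes. These counts show that the choice mixes genes that were almost silent elsewhere with genes that were expressed elsewhere but far higher in PGCs. The highest of the 6 other values lay in an EGK.X blastoderm library for 122 genes and in a CEF library for 78. Where both other groups are counted together, 17 genes had at most 3 counts in each group, and their PGC means reached from 19.2 to 1641 normalized CPM.

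There were 6 genes with no count in any of the 6 CEF and EGK.X blastoderm libraries, namely ranks 15, 30, 73, 89, 113 and 186. Their PGC means were 265, 144, 65.2, 55.6, 40.8 and 20.0 normalized CPM, in that order. A count of 0 sets a floor rather than absence. With 3 counts over the 3 libraries of a group as the floor, which covers counting error only, the PGC level of rank 15 was higher than that of CEFs by at least 10974-fold and than that of EGK.X blastoderms by at least 18211-fold. For rank 186, the lowest of these 6, the bounds were 828-fold and 1374-fold. For these genes, the bounds differ between the groups only because the EGK.X blastoderm libraries were deeper.

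With genes at 0 placed at that bound, the median fold of the 200 genes was 831 for PGCs over CEFs and 369 for PGCs over EGK.X blastoderms. The smallest folds were 20.4 over CEFs (rank 198) and 25.7 over EGK.X blastoderms (rank 185). A fold of at least 100 was seen over CEFs for 168 genes, over EGK.X blastoderms for 153 and over both for 136. A fold of at least 1000 was seen for 94, 76 and 54 genes, respectively. Genes with 1 to 3 counts over a group entered with those counts. At most 3 counts were held by 57 genes in CEFs and 28 in EGK.X blastoderms, so their folds rest on few or no reads. In the fit across all genes, all 200 passed the thresholds of adjusted p under 0.05 and log2 fold change beyond 1 as higher in PGCs than in CEFs, where 23.7% of all 22698 tested genes did, and as higher in PGCs than in EGK.X blastoderms, where 23.4% did. The fitted log2 fold changes had a median of 9.67 over CEFs and 8.50 over EGK.X blastoderms, against 0.05 and 0.03 over all tested genes, and those of genes at or near 0 counts depend on the prior count of the fit. Since the choice used both contrasts and they share the PGC libraries, these counts and medians only describe the choice.

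The gene with the highest score, ENSGALG00000016491, had 2833, 2622 and 3746 normalized CPM in PGC replicates 1 to 3. It stood at 0.200, 0.0622 and 0.547 in CEFs and at 0.349, 0.568 and 0.0441 in EGK.X blastoderms. The CEF and EGK.X blastoderm libraries overlap, and PGCs were 11373-fold above the CEF mean and 9579-fold above the EGK.X blastoderm mean. Between EGK.X blastoderms and CEFs, its log2 fold change was 0.21 ± 0.68 (SE, adjusted p = 0.825, quasi-likelihood test of edgeR, Benjamini-Hochberg adjusted), and the sign of this change turned when CEF replicate 1, CEF replicate 2 or EGK.X blastoderm replicate 2 was left out.

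Rank 2 came closest to silence among the strongly expressed ones. It had 1489, 1540 and 1896 normalized CPM in PGC replicates 1 to 3, and only 1 read was counted for it in the 6 other libraries together, in CEF replicate 1. Relative to that 1 count, its ratio of PGCs to CEFs had a 95% counting interval from 36618 to 8058400. Over EGK.X blastoderms, where it had no count, the PGC level was at least 112854-fold higher.

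The gene with the highest PGC level, ENSGALG00000010858, had a lower rank, 139, because it was also expressed in blastoderms. It had 5565, 5322 and 7339 normalized CPM in PGCs, 152, 186 and 120 in EGK.X blastoderms, and 6.37, 5.38 and 10.7 in CEFs. The 3 groups do not overlap and lie in this order. PGCs were 39.8-fold above EGK.X blastoderms and 813-fold above CEFs by their means. EGK.X blastoderms were 20.4-fold above CEFs, with a log2 fold change of 4.35 ± 0.27 (SE, adjusted p = 5.61e-08, edgeR). The score capped the highest of the values compared here, so this comparison is not free of the choice. This 1 gene took 27.3, 29.4 and 26.6% of all counts on the 200 genes in EGK.X blastoderm replicates 1 to 3.

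The opposite order was seen for ENSGALG00000008704, rank 60, the gene with the highest CEF level among the 200. Its values were 2926, 2882 and 3679 normalized CPM in PGCs, 34.0, 38.9 and 33.0 in CEFs, and 3.88, 3.14 and 6.86 in EGK.X blastoderms. The groups again do not overlap, and here CEFs lie above EGK.X blastoderms by 7.63-fold. The log2 fold change of EGK.X blastoderms over CEFs was -2.93 ± 0.25 (SE, adjusted p = 7.43e-07, edgeR). PGCs were 89.6-fold above CEFs and 683-fold above EGK.X blastoderms. It took 14.4, 16.6 and 10.9% of the counts on the 200 genes in CEF replicates 1 to 3.

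**Figure D3:**
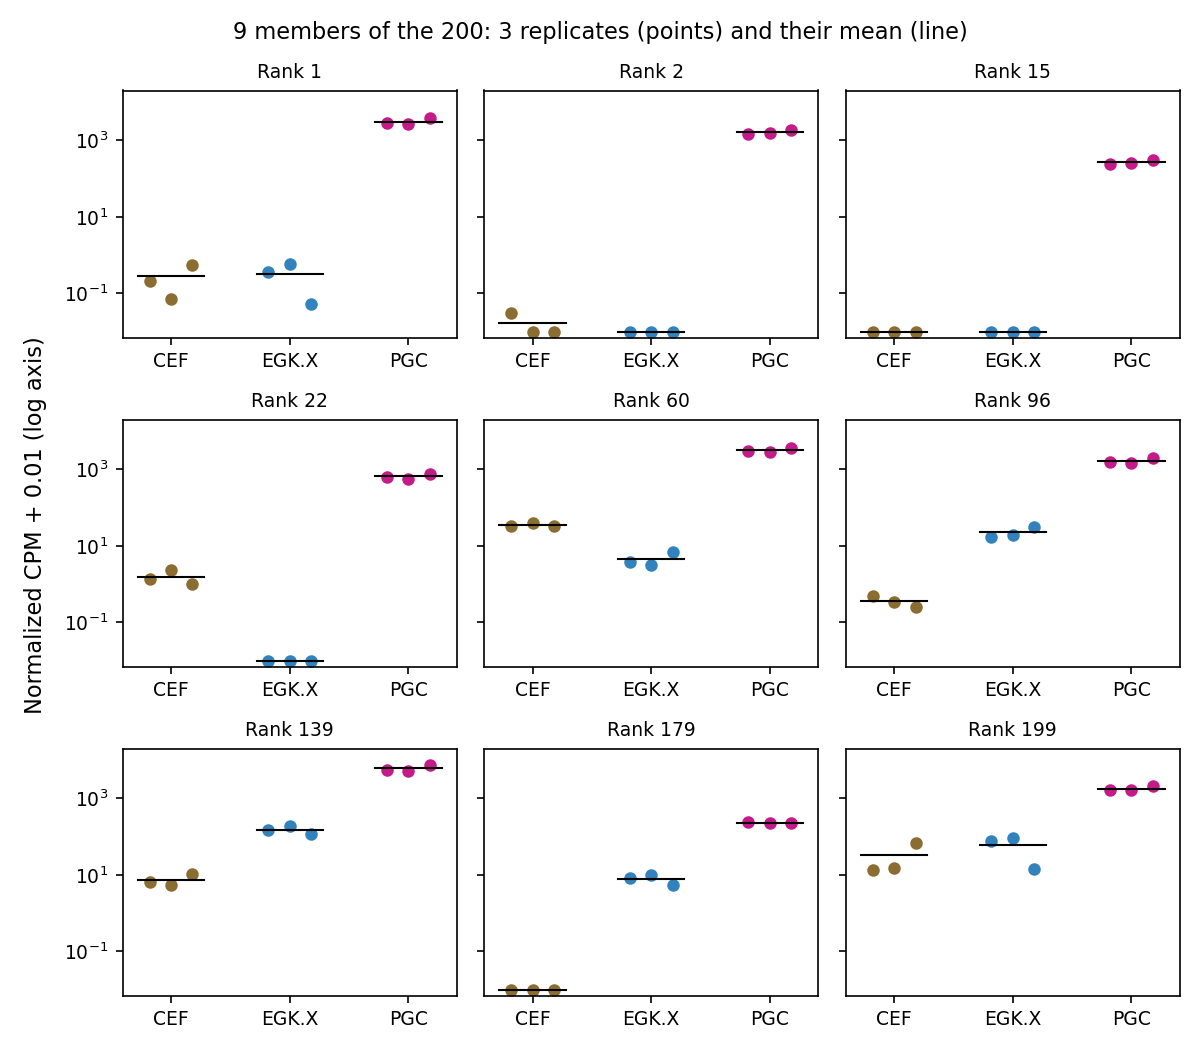
Normalized CPM plus 0.01 (log axis) of 9 of the 200 genes, named by rank, in CEFs, EGK.X blastoderms and PGCs, where points are the 3 replicates and lines their means. PGCs are highest in every panel, whereas the CEF and EGK.X blastoderm levels run from no count in all 6 libraries (rank 15) to above 10 in all 6 (rank 199) and differ in order between panels (ranks 60 and 139).

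The comparison of EGK.X blastoderms with CEFs sets the 200 genes in uncultured early embryos beside cultured fibroblasts. By the study, PGCs are already found in the blastoderm. The groups differ in stage, culture and cell mixture, which cannot be told apart. The score did not set one group against the other, but it put a ceiling on both. The calls below are therefore not free of the choice. EGK.X blastoderms were higher than CEFs for 73 of the 200 genes (36.5%) and lower for 36 (18%), and 91 passed in neither direction (adjusted p under 0.05 and log2 fold change beyond 1, edgeR quasi-likelihood test). Over all tested genes, 23.1% were higher and 21.6% lower. A total of 109 of the 200 genes were called in either direction, beside 44.7% of all tested genes. Hence, the share higher in EGK.X blastoderms lay above the share over all genes. The share lower was near the share over all genes, and nothing is read from it. Many of the 200 genes had few counts in both groups, and the part of this in the shares was not tested. The fitted log2 fold change was above 0 for 122 genes and below 0 for 72, with a median of 0.81 against 0.09 over all tested genes. Over the 194 genes with a count in either group, and with a group at 0 placed at its floor, the median log2 ratio was 0.72. Scaling by library size alone moved the median of all genes by 0.50 on the log2 scale, and with it 92 genes were higher and 26 lower, beside 32.0% and 16.2% of all genes. The share of calls that were higher thus went from 67.0% to 78.0%. On log2(normalized CPM + 1), which compresses values under 1, limma called only 37 genes, of which 23 were higher and 14 lower, beside 13.7% and 15.4% of all genes, so that the excess of higher calls was not seen on that scale. With the same thresholds in every alternative fit, 23 genes (11.5%) were called higher and 11 (5.5%) lower each time, beside 12.8% and 12.1% of all tested genes, and none of the 200 was called in opposite directions.

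**Figure D4:**
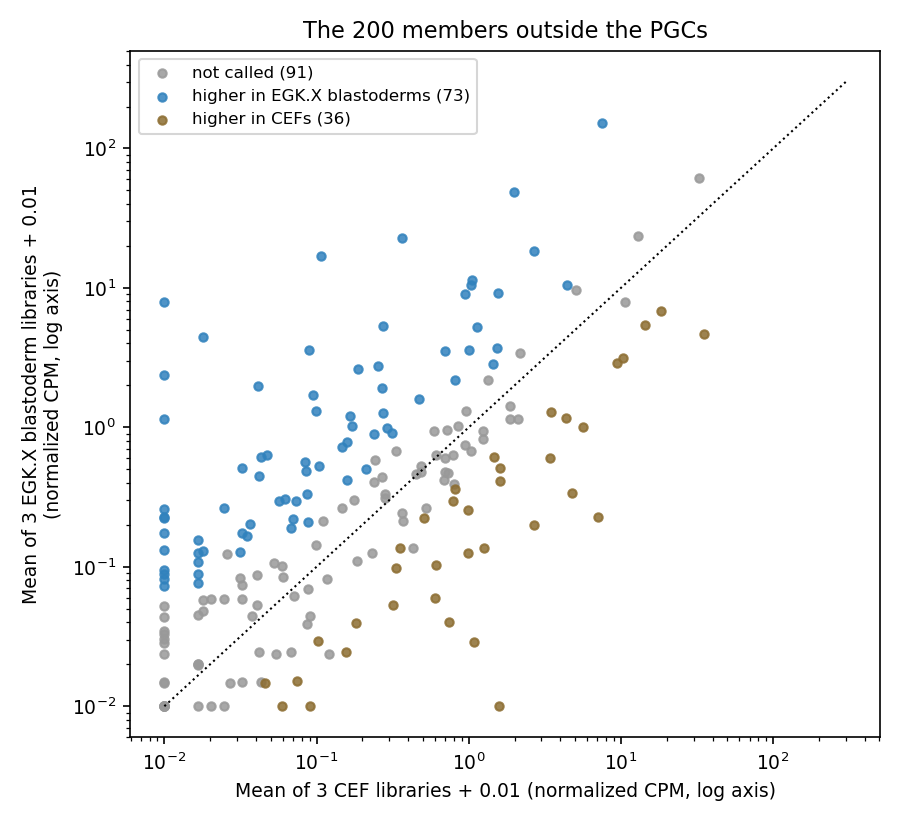
Mean of the 3 EGK.X blastoderm libraries against the mean of the 3 CEF libraries for the 200 genes, as normalized CPM plus 0.01 on log axes, with the dotted line at equal levels. Blue marks the 73 genes called higher in EGK.X blastoderms, brown the 36 called higher in CEFs and grey the 91 not called, many of which lie at the lower left, where counts are few.

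The 73 genes higher in EGK.X blastoderms had a median of 0.717 normalized CPM there and 0.0762 in CEFs. Their groups did not overlap for 63 genes (86.3%, beside 96.4% of all genes called higher), and 32 had an EGK.X blastoderm mean above 1. In PGCs, their median level was 122. They took 68.5, 68.7 and 75.8% of the counts on the 200 genes in EGK.X blastoderm replicates 1 to 3, although in PGC replicates 1 to 3 they took 43.4, 42.9 and 43.8%. Their median score rank was 117, and 8 of them were among the 30 highest scores.

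Within this group, rank 96 had 17.5, 18.9 and 31.8 normalized CPM in EGK.X blastoderms and 0.479, 0.342 and 0.238 in CEFs, with 1534, 1482 and 1956 in PGCs. Its log2 fold change of EGK.X blastoderms over CEFs was 5.98 ± 0.31 (SE, adjusted p = 1.14e-08, edgeR), which was 64.4-fold by the means. The gene of rank 179 had no count in any CEF library. In EGK.X blastoderms it stood at 8.24, 9.84 and 5.52, at least 326-fold higher than in CEFs, and in PGCs at 244, 225 and 223. Rank 138 followed the pattern of rank 139, with 48.2, 60.3 and 38.2 in EGK.X blastoderms, 2.36, 0.932 and 2.62 in CEFs, and 1889, 1749 and 2468 in PGCs. For all of them, the lowest EGK.X blastoderm library lay above the highest CEF library.

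The 36 genes lower in EGK.X blastoderms than in CEFs had a median of 1.03 normalized CPM in CEFs and 0.202 in EGK.X blastoderms. There was no overlap between the groups for 27 of them (75%, beside 95.1% of all genes called lower), and 18 had a CEF mean above 1. Their median PGC level was 221 and their median score rank 95. They took 54.5, 57.9 and 46.9% of the counts on the 200 genes in CEF replicates 1 to 3. Besides rank 60, the smallest p belonged to ENSGALG00000000417, rank 75. It had 1.54, 1.12 and 1.12 in CEFs, 0.0758, 0.125 and 0.176 in EGK.X blastoderms, and 141, 153 and 186 in PGCs. The log2 fold change of EGK.X blastoderms over CEFs was -3.31 ± 0.28 (SE, adjusted p = 7.46e-07, edgeR), and CEFs were 10.0-fold higher by the means.

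Several genes of this group were readily counted in fibroblasts. The gene of rank 22 stood at 1.34, 2.33 and 1.02 normalized CPM in CEFs and had no count in EGK.X blastoderms, so that CEFs were at least 108-fold higher. Its PGC values were 623, 561 and 769. Rank 198 was steady in CEFs, at 18.05, 18.6 and 18.4, compared with 7.73, 5.76 and 6.82 in EGK.X blastoderms and 343, 341 and 439 in PGCs. Its log2 fold change of EGK.X blastoderms over CEFs was -1.44 ± 0.15 (SE, adjusted p = 4.65e-06, edgeR).

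Of the 91 genes called in neither direction, 46 had fewer than 20 counts in each group. Genes with as few counts were also called, 6 of them higher and 7 lower. The 91 genes called in neither direction had median levels of 0.0914 normalized CPM in EGK.X blastoderms, 0.0809 in CEFs and 83.4 in PGCs. Rank 199, also not called, was well counted. It stood at 13.5, 15.0 and 69.2 in CEFs, at 75.8, 94.2 and 14.5 in EGK.X blastoderms, and at 1653, 1667 and 2063 in PGCs. Here CEF replicate 3 and EGK.X blastoderm replicate 3 lay far from their groups, and the log2 fold change of 0.92 ± 0.64 did not pass (SE, adjusted p = 0.247, edgeR).

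Such departures of 1 library were concentrated in CEF replicate 2 and EGK.X blastoderm replicate 3. A total of 78 of the 200 genes had at least 20 counts in a CEF library. For 8 of these 78, CEF replicate 2 was lower than both other replicates by more than 4-fold, beside 2.24% of all genes counted so. For 9 of the 112 such genes in EGK.X blastoderms, replicate 3 was low in this way, beside 2.196% of all genes counted so. No other library was low by this measure for more than 1 of the 200 genes. Over all genes counted so, CEF replicates 1 and 3 were low for 0.348 and 0.558%. EGK.X blastoderm replicates 1 and 2 were low for 0.233 and 0.227%, so the concentration was also seen over all genes. CEF replicate 2 was more than 4-fold above both other replicates for 0.585% of all genes counted so. For EGK.X blastoderm replicate 3, this share was 0.535%. In CEF replicate 2, 3 counts stood for 0.0932 normalized CPM, and in EGK.X blastoderm replicate 3 for 0.0441. Among the 200 genes, most values that were low by the 4-fold measure in these libraries lay at or below those levels. The others reached up to 1.09 in CEF replicate 2 and up to 14.5 in EGK.X blastoderm replicate 3. The shares over all genes were not matched for counts, so the part of few reads was not tested. The score capped the highest of the other values, and the part of that cap in these departures was not tested. The genes of ranks 167 and 191 were low in both CEF replicate 2 and EGK.X blastoderm replicate 3. For rank 191, the values were 2.18, 0.124 and 2.33 normalized CPM in CEFs and 9.53, 16.5 and 1.37 in EGK.X blastoderms, while PGCs held 329, 326 and 407. For rank 167, they were 6.33, 1.09 and 6.97 in CEFs and 0.485, 0.485 and 0.0147 in EGK.X blastoderms, while PGCs held 174, 181 and 222. The part of these libraries in the values of single genes was not tested beyond leaving out each library, with which the number called between EGK.X blastoderms and CEFs was 100 to 114. For these fits, the share over all genes was not computed.

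The 3 PGC replicates were not alike in the level of the 200 genes. Replicate 3 was the highest of the 3 for 184 of the 200 genes (92.0%). Among the 7312 genes at or above the lowest PGC level of the 200, it was highest for 60.6%. The ratio of replicate 3 to the mean of replicates 1 and 2 had a median of 1.24 over the 200 genes, from 0.722 (rank 169) to 1.61 (rank 183), and of 1.06 over the 7312 genes. With library size alone, the medians were 1.15 and 0.983. The ratio was at least 1.1 for 176 genes, at least 1.3 for 46 and under 1 for 12. Replicates 1 and 2 were alike in comparison, with a median ratio of replicate 2 to replicate 1 of 0.994, and replicate 2 was the higher for 91 genes. Accordingly, the coefficient of variation over PGC replicates had a median of 13.1% for the 200 genes and 6.33% for the 7312 genes.

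**Figure D5:**
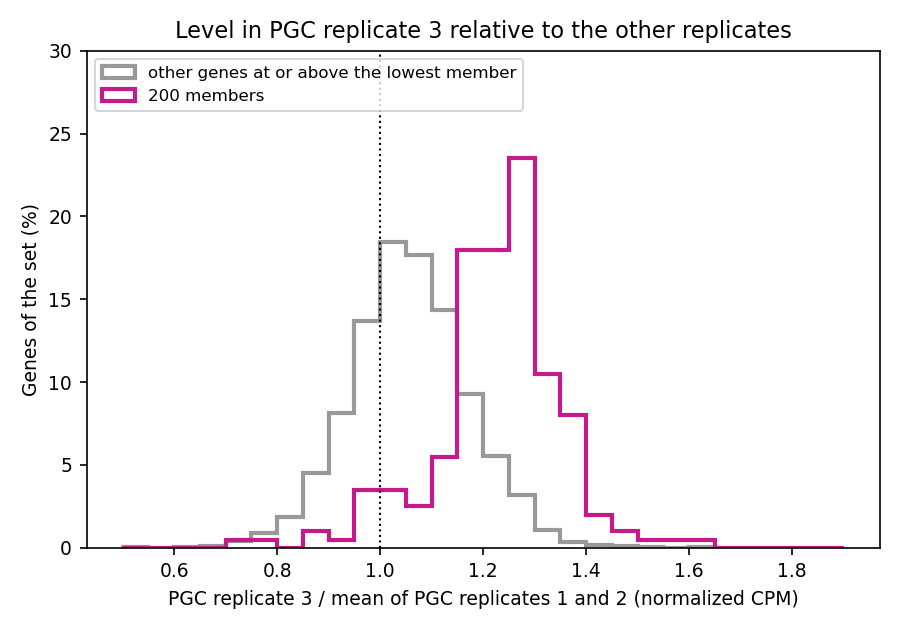
Share of genes (%) by the ratio of PGC replicate 3 to the mean of PGC replicates 1 and 2, for the 200 genes (magenta) and for the other genes at or above the lowest PGC level of the 200 (grey), with the dotted line at equal levels. The 200 genes peak between 1.15 and 1.3, and the other genes peak near 1.

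This excess of replicate 3 was measured beside genes of other kinds. Of the study's listed genes, 103 were at or above the lowest PGC level of the 200, and replicate 3 was highest for 61 of them (59.2%), with a median ratio of 1.04. The summed level of the 200 PGC-restricted genes was 51642, 50541 and 64393 normalized CPM in PGC replicates 1 to 3. The summed level of the 200 genes most restricted to CEFs by the same score was 2605, 2698 and 2929 in these libraries, and that of the 200 genes most restricted to EGK.X blastoderms was 2469, 2382 and 2416. This look at the other restricted sets was made after the data were seen. Their score capped the highest value in the other libraries, PGC replicate 3 among them. Their levels in PGCs are therefore not free of the choice. Replicate 3 was highest for the PGC-restricted and the CEF-restricted sum but not for the blastoderm-restricted one. The median over the genes of the CEF-restricted set was 1.46, 1.58 and 1.52 in PGC replicates 1 to 3, so by the median replicate 3 was not the highest for that set. The part of cell composition, embryo pool or preparation in this difference was not tested.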

How the data were processed

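Whole-transcriptome libraries of CEFs, EGK.X blastoderms and PGCs (3 replicates each) were made from ribosomal RNA-depleted total RNA with a stranded kit. According to the study's methods and the submitters' processing notes, the authors trimmed reads with Trimmomatic 0.39, aligned them to GRCg6a with HISAT2 2.2.0, converted them with SAMtools 1.10 and deposited raw counts per gene from HTSeq-count on Ensembl release 101. The HTSeq version, strand setting and overlap mode are not given in the sources used here. The second deposited file holds a signal value per gene, a CPM on the TMM-adjusted library size that the authors computed with edgeR, and was recomputed from the counts to within 3.25e-06%. The 5 summary entries of each count file were left out of library sizes. Of all entries in these files, reads assigned to no gene made up 26.6 to 36.2% and ambiguous reads 0.491 to 0.943%.

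The 200 genes and all gene sets were chosen with earlier results of these data known. Counts were tested with edgeR 4.0.16 in R 4.3.3 (TMM, quasi-likelihood test over all 9 libraries, Benjamini-Hochberg adjustment over the 22698 genes with at least 1 count), with adjusted p under 0.05 and log2 fold change beyond 1 as thresholds, after a check on simulated data. Alternatives were edgeR's likelihood ratio test (named in the study's methods), DESeq2 1.42.0, limma 3.58.1 on log2(normalized value + 1), other scalings and filters, a replicate block, and the omission of each library. Score alternatives used pseudocounts of 0.1 and 10, group means and other scalings. Genes described singly were taken by rule: the highest scores, the highest PGC level, the smallest p in each direction between EGK.X blastoderms and CEFs, and the genes around the limit. Ranks 22, 138, 167 and 191, the extremes of a range, and the genes without a count in all 6 other libraries, were chosen after their values were seen. Folds against a group without counts use a floor of 3 counts over the group, and floors and intervals cover counting error only. Replicates were described as biological, but a PGC replicate pools many embryos. No coordinates or sequences are given, since no annotation of this build was used here.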

Additional observations from a re-analysis of the deposited data

How the results depend on the processing

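The membership of the 200 genes depended most on the pseudocount of the score. With 0.1 in place of 1, 169 of the 200 (84.5%) were chosen again, and with 10, 159 (79.5%). Group means in place of extremes kept 191, library size alone 192, DESeq2 size factors 198, and leaving out 1 library between 192 and 199, and 130 genes were chosen under every rule. The gene of rank 1 was first in all of them except with a pseudocount of 0.1. The sets chosen with 0.1 and with 10 had median levels of 79.7 and 167 normalized CPM in PGCs, 0.123 and 0.701 in EGK.X blastoderms, and 0.0608 and 0.381 in CEFs. They took 4.72 and 8.12% of the counts in PGCs, 0.0131 and 0.133% in EGK.X blastoderms, and 0.00754 and 0.0551% in CEFs. By construction, a smaller pseudocount favours genes near 0 elsewhere. Scaled by library size alone, the median levels of the 200 genes were 143 in PGCs, 0.258 in EGK.X blastoderms and 0.0923 in CEFs.

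All 200 genes were called higher in PGCs in both contrasts under every alternative, which the choice of the genes largely fixed. Between EGK.X blastoderms and CEFs, limma called 37 genes in place of 109, 23 higher and 14 lower, beside 13.7% and 15.4% of all genes. A fit of only these groups called 78 (52 higher and 26 lower). Leaving out 1 library gave 100 to 114 (67 to 79 higher and 31 to 37 lower). Except for limma, the share over all genes was not computed for these fits or for the replicate block below. The counts of those fits thus do not show whether the excess of higher calls held. Of the 6 genes followed singly, all but ranks 1 and 139 were picked for a small p between EGK.X blastoderms and CEFs. The score had also used both PGC contrasts, so agreement among the alternatives was largely set in advance. These 6 genes kept their direction and their side of the threshold in 339 of 342 values. The others were those of the top-ranked gene, ENSGALG00000016491, whose log2 fold change of EGK.X blastoderms over CEFs went from 0.21 to -0.03 without CEF replicate 1, to -0.16 without CEF replicate 2 and to -0.50 without EGK.X blastoderm replicate 2, within a range of -0.50 to 1.16 over the libraries left out (1.16 without CEF replicate 3), and the cause was not tested. With the replicate number as a block, 106 genes were called between EGK.X blastoderms and CEFs (71 higher and 35 lower) and 200 in each PGC contrast. Same-numbered samples correlated in their deviations from the group means by -0.148 to 0.213 over 9 pairs, and differently numbered samples by -0.194 to 0.227. With so few pairs, and with deviations within a group tied to each other, these values cannot decide whether the numbers pair the samples.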
